A study of Homo sapiens with 13 samples.

Results

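SR proteins and heterogeneous nuclear ribonucleoproteins (hnRNPs) are the 2 large classes of RNA-binding proteins that set how exons are chosen. SR proteins and the related TRA2 proteins carry an RNA recognition motif and a region rich in arginine and serine, and they mostly favour inclusion of the exon they bind. hnRNPs, among them the polypyrimidine tract binding proteins (PTBP1, PTBP2) and the poly(C) binding proteins (PCBP1, PCBP2), often repress exons and also act on export, stability and translation of mRNA. Many genes of both classes control their own splicing by including exons with early stop codons, so their mRNA and their translation need not move together.

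The genes were chosen by symbol: SRSF followed by a number, TRA2A, TRA2B, every HNRNP gene, PTBP1, PTBP2, PCBP1 and PCBP2, with pseudogenes and 1 hnRNP A gene left out. In all, 41 genes met this rule in either of the 2 deposited tables, of 24875 symbols in the Silvestrol table and 13121 in the INK128 table. The Silvestrol table held 39 of them. Of these, 26 were under symbols of the rule, which also took HNRPLL and HNRPDL as spellings of HNRNPLL and HNRNPDL. The other 13 were under other names and were matched by RefSeq accession. In all, 34 passed the filter on low values that 10377 genes passed. The INK128 table held 40, of which 39 passed its filter along with 10131 genes in all, and 38 genes were in both tables. The 5 genes that missed the Silvestrol filter were HNRNPA1L2, HNRNPA3, HNRNPCL2, SRSF10 and SRSF12. SRSF10, SRSF12 and HNRNPCL2 were listed with 0 reads in every library, and HNRNPA3 had between 1 and 4 ribosome footprint (RF) reads per 2 h library. SRSF12 also missed the INK128 filter. Of the INK128 genes, HNRNPU-AS1 is an antisense RNA and HNRNPUL2-BSCL2 a readthrough transcript, and their reads may be shared with overlapping genes.

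All libraries came from MDA-MB-231, a human triple-negative breast cancer cell line. Silvestrol, an inhibitor of the RNA helicase eIF4A, was given at 25 nM for 1 h or 2 h against DMSO, and RFs were also sequenced from untreated cells. At 2 h there were RF libraries of 2 cultures, passage 3 (replicate 1) and passage 4 (replicate 2), whereas mRNA was sequenced from passage 3 only, in 1 library per treatment. In the second experiment, RFs and total RNA were sequenced after 2 h of DMSO or 200 nM INK128, an inhibitor of the kinase mTOR, with 1 library each. One label field of the passage 3 Silvestrol RF library at 2 h gives 1 h, and one field of the DMSO mRNA library says untreated, and both libraries were assigned by their titles. Since 1 cell line was used, and the passages are cultures of that line, p-values measure the spread between these cultures. Counted reads ranged from 2625704 (Silvestrol RF, passage 4) to 49656150 (DMSO mRNA). RF levels of defining markers fitted the labelled cell line: in the 7 RF libraries VIM was at 4789 RPKM (reads scaled by counted length and library size) or above, CD44 at 138 or above and KRT18 at 47.4 or above, while ESR1, PGR and CDH1 did not exceed 0.11 and ERBB2 did not exceed 4.05.

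SR and hnRNP genes were among the well translated genes of control cells. In the passage 3 DMSO library at 2 h, 33 of the 34 genes had an RF level above the median gene, with a median of 335 RPKM against 20.8 over all genes tested. Translational efficiency (TE), the RF RPKM over the mRNA RPKM, had a median log2 value of 2.38 against 0.88 over all genes, and 32 of 34 genes lay above that. The highest TE values were close to each other, at a log2 of 3.78 for SRSF1, 3.73 for HNRNPDL, 3.64 for TRA2B and 3.60 for HNRNPA2B1, and without a replicate of the mRNA library they cannot be ordered. HNRNPL was lowest at 0.49. HNRNPA2B1, a core hnRNP of the A/B group, had the highest RF level, with 1824 and 2215 RPKM in the DMSO libraries of passages 3 and 4, and PTBP2, the neuronal paralog of PTBP1, the lowest, with 17.7 and 16.8.

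Silvestrol lowered the RFs of 10 of these 34 genes at 2 h and raised those of 3. The 10 were HNRNPD, HNRNPLL, HNRNPH3, TRA2A, HNRNPH2, HNRNPUL2, HNRNPAB, HNRNPF, HNRNPA0 and TRA2B, with log2 RF changes from −1.61 to −0.63, and the 3 were PTBP2, PTBP1 and HNRNPDL, with changes of 0.93, 0.70 and 0.67. These calls are from edgeR's quasi-likelihood test over 2 DMSO and 2 Silvestrol libraries with an adjusted p under 0.05, and the fitted changes are relative to the bulk of genes, so a change shared by all RFs would not show. In bulk cultures, less signal per cell and fewer cells with it cannot be told apart. Of all genes tested, 8.79% were called lower and 3.03% higher by the same test. Those genes were not matched to the group for RF level, whose median was 335 RPKM in the group and 20.8 over all genes. How far the difference in shares goes with read depth was not tested. The median fitted change was −0.07 over the 34 genes and −0.01 over all genes. DESeq2 also called 10 lower and 3 higher, where it called 9.57% and 5.13% of all genes.

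A fit with 1 Silvestrol RF library takes its spread from the 2 DMSO libraries alone, assuming that the lone library varies as they do. Without the Silvestrol library of passage 3, and likewise without that of passage 4, edgeR called 0 of the 34 genes and 0% of all genes in either direction, so the loss of the calls there says nothing particular about these genes. The log2 changes of the 13 called genes moved by at most 0.29 in these fits and kept their sign, with adjusted p between 0.077 and 0.24. HNRNPD was at −1.72 and −1.55 and PTBP1 at 0.65 and 0.73. At an unadjusted p under 0.05, 11 were lower and 4 higher in each, against 11.5% and 4.44% of all genes without passage 3 and 12.6% and 6.46% without passage 4. With the passage as a replicate block, which the labels support since DMSO and Silvestrol share the cultures, edgeR called 14 lower and 8 higher, against a background of 28.2% and 25.1% of all genes. The additional genes in the blocked fit were HNRNPC, HNRNPU, HNRNPUL1 and SRSF1 on the lower side and HNRNPH1, HNRNPK, PCBP1, SRSF4 and SRSF6 on the higher side.

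**Figure D1:**
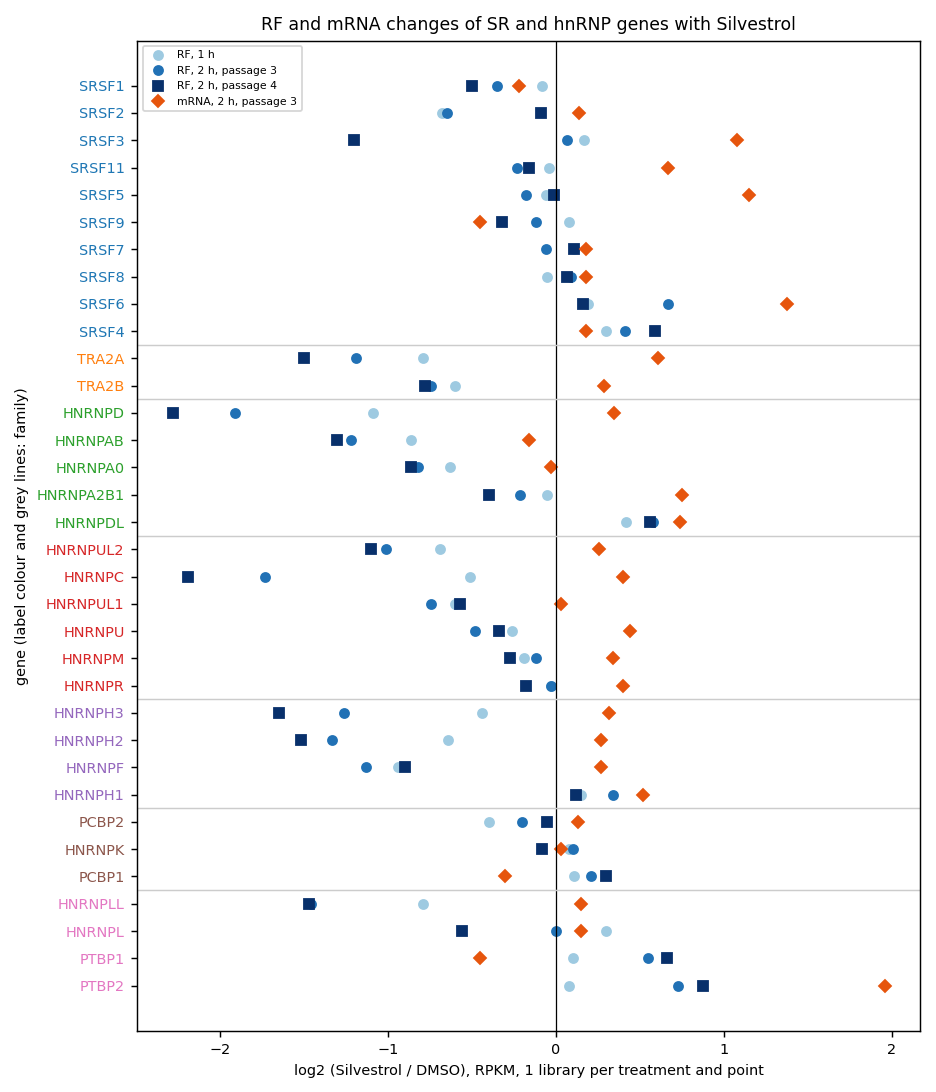
Log2 ratio of Silvestrol to DMSO RPKM (x axis) for the 34 genes past the filter (y axis, grouped by family). Circles and squares are RFs at 1 h and at 2 h in passages 3 and 4, diamonds are mRNA at 2 h, and each point is 1 pair of libraries. RF points of TRA2, HNRNPD, HNRNPLL and the HNRNPH2, HNRNPH3 and HNRNPF genes lie left of 0, whereas most mRNA points lie right of it.

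HNRNPD, which binds AU-rich elements in mRNA (AUF1), had the lowest RF change of the group. Its RF level was 601 and 603 RPKM in the DMSO libraries of passages 3 and 4 and 159 and 124 RPKM in the Silvestrol libraries, so the groups did not overlap. The fitted log2 change was −1.61 ± 0.14 (SE, n = 2 per group, edgeR adjusted p = 0.013). This fit is from reads, and the RPKM changes were larger in size, at −1.91 and −2.28. Counted length differed between treatments by 0.3 and 0.37 on the log2 scale. The level was already lower at 1 h, with 650 RPKM in DMSO and 305 in Silvestrol, while HNRNPD mRNA was 92.4 RPKM in DMSO and 117 in Silvestrol.

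Its close paralog HNRNPDL, which lies near it on chromosome 4 (chr4:83343718-83351615, minus strand, hg19, against chr4:83273651-83295656 for HNRNPD), moved in the opposite direction. RFs of HNRNPDL were 362 and 340 RPKM in DMSO and 540 and 503 in Silvestrol at 2 h, a log2 change of 0.67 ± 0.12 (SE, n = 2 per group, edgeR adjusted p = 0.029). HNRNPDL mRNA was also higher in the 1 Silvestrol library, at 45.7 against 27.3 RPKM, so that its TE change was near that of the average gene (z-score 0.16). Of the other A/B genes, RFs of HNRNPAB fell from 413 and 411 to 177 and 167 RPKM, and those of HNRNPA0 from 371 and 379 to 210 and 208. For HNRNPAB the fitted log2 change from reads was −0.87, against −1.22 and −1.3 from RPKM. Its counted length differed by 0.19 and 0.32 on the log2 scale. HNRNPA2B1 was not called, with 1824 and 2215 RPKM in DMSO and 1580 and 1678 in Silvestrol.

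The hnRNP F and H genes, which bind runs of G, also divided. RFs fell for 3 of 4, HNRNPH3, HNRNPH2 and HNRNPF, and the HNRNPH1 change of 0.45 ± 0.21 was called by the blocked fit only (edgeR adjusted p = 0.20 without the block and 4.2e-06 with it). HNRNPH3 had 313 and 299 RPKM in DMSO and 131 and 94.9 in Silvestrol, a log2 change of −1.22 ± 0.19 (SE, n = 2 per group, edgeR adjusted p = 0.023). HNRNPH2, encoded on the X chromosome, had 159 and 133 RPKM in DMSO and 63.3 and 46.3 in Silvestrol. Its fitted log2 change from reads was −0.94 ± 0.15, smaller in size than the RPKM changes of −1.33 and −1.52. Its counted length differed between treatments by 0.24 and 0.45 on the log2 scale. HNRNPH1 had 474 and 543 RPKM in DMSO and 598 and 589 in Silvestrol. HNRNPF had 634 and 545 RPKM in DMSO and 289 and 292 in Silvestrol. In this family mRNA differed by less than 1.5-fold in every case, with log2 changes from 0.27 for HNRNPH2 and HNRNPF to 0.52 for HNRNPH1.

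Both TRA2 genes had fewer RFs. TRA2A was at 160 and 140 RPKM in DMSO and 70.2 and 49.4 in Silvestrol, a log2 change of −1.0 ± 0.18 (SE, n = 2 per group, edgeR adjusted p = 0.031), while its mRNA was 23.5 RPKM in DMSO and 35.8 in Silvestrol. TRA2B was at 469 and 461 RPKM in DMSO and 280 and 268 in Silvestrol (−0.63 ± 0.13, edgeR adjusted p = 0.038), and it was not called without the DMSO library of passage 3 (adjusted p = 0.058).

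HNRNPLL, an hnRNP L paralog known for the splicing of CD45 in lymphocytes, had 59.7 and 57.6 RPKM in DMSO and 21.7 and 20.8 in Silvestrol. Its log2 change was −1.33 ± 0.16 (SE, n = 2 per group, edgeR adjusted p = 0.016). HNRNPL itself was not called and its passages differed, with 92.2 and 85.4 RPKM in DMSO and 92.0 and 57.9 in Silvestrol.

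The 2 PTB genes had more RFs and differed from each other in mRNA. PTBP1, a repressor of exons next to pyrimidine tracts, had 492 and 376 RPKM in DMSO and 717 and 593 in Silvestrol (0.70 ± 0.13, SE, n = 2 per group, edgeR adjusted p = 0.031), while its mRNA was 195 RPKM in DMSO and 143 in Silvestrol. When the counted length of each gene in each library was entered as an offset, the adjusted p of PTBP1 was 0.061. PTBP2 had 17.7 and 16.8 RPKM in DMSO and 29.4 and 31.0 in Silvestrol (0.93 ± 0.17, edgeR adjusted p = 0.030), and its mRNA was 2.27 RPKM in DMSO and 8.82 in Silvestrol, a log2 change of 1.96 that was the highest of the group. The PTBP2 mRNA values rest on 501 and 998 reads.

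**Figure D2:**
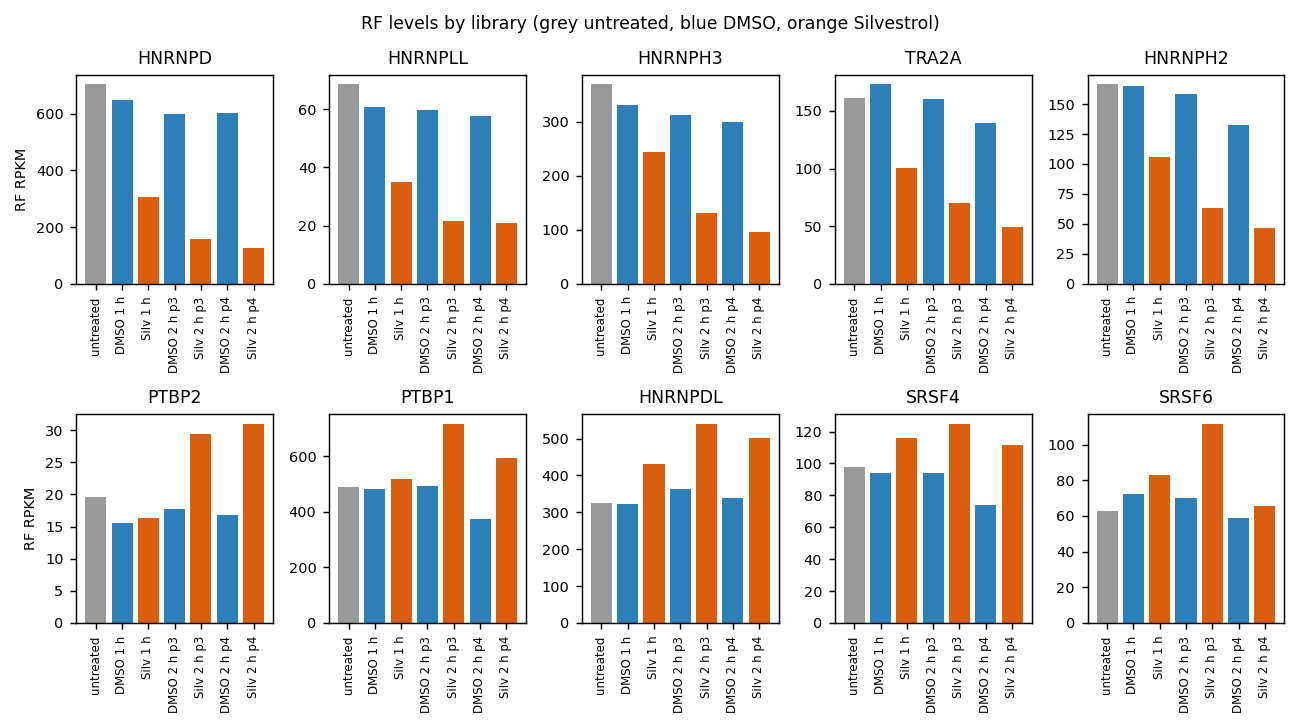
RF RPKM (y axis, from 0) in each of the 7 RF libraries (x axis, p3 and p4 are passages 3 and 4) for the 5 genes with the lowest and the 5 with the highest fitted log2 RF change among genes with at least 50 RF reads in each 2 h library. Each bar is 1 library. For the upper 5 genes both Silvestrol libraries at 2 h are below all DMSO libraries, and HNRNPD goes from 601 and 603 to 159 and 124 RPKM.

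Among the hnRNP C, M, R and U genes, HNRNPUL2 fell from 144 and 149 to 71.5 and 69.5 RPKM, and HNRNPUL1 fell short of the threshold at −0.53 ± 0.13 (edgeR adjusted p = 0.054). HNRNPC, a core hnRNP that binds runs of U, is uncertain in this table. It had 145 and 50 RF reads in DMSO and 37 and 13 in Silvestrol, and its counted length, reads over RPKM, differed between the libraries compared by 0.78 and 1.47 on the log2 scale. Its RPKM values were 39.6 and 37.7 in DMSO and 11.9 and 8.26 in Silvestrol, and the fitted log2 change was −0.74 ± 0.40 from reads (edgeR adjusted p = 0.27) but −1.74 with the offset for counted length (adjusted p = 0.037). Of the 3 hnRNP K and PCBP genes, edgeR called none without the block, against 8.79% of all genes lower and 3.03% higher. With the block it called 2 higher, HNRNPK and PCBP1 (adjusted p = 0.015 and 2.5e-05), against 25.1% of all genes. The call of HNRNPK was lost when the offset for counted length was added to the block (edgeR adjusted p = 0.21), and that of PCBP1 was kept (1.9e-05). At an unadjusted p under 0.05 edgeR and DESeq2 each had 1 of the 3 higher and 0 lower. Of all genes, edgeR had 12.9% higher and 19% lower at that level, and DESeq2 12.1% and 14.9%. PCBP1 was at 703 and 555 RPKM in DMSO and 812 and 684 in Silvestrol (0.39 ± 0.14, edgeR adjusted p = 0.12). HNRNPK was at 233 and 257 RPKM in DMSO and 250 and 244 in Silvestrol, and PCBP2 at 252 and 149 in DMSO and 220 and 144 in Silvestrol. HNRNPU, HNRNPM and HNRNPR had fitted changes of −0.26, −0.03 and 0.18 and were not called without the block.

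Fitted log2 RF changes of the 10 SR proteins ran from −0.27 for SRSF1, the founding SR protein (ASF/SF2), to 0.62 for SRSF4, and 0 of 10 genes passed the edgeR test, where 8.79% of all genes were called lower and 3.03% higher. So few genes at those shares say nothing particular to SR proteins. At an unadjusted p under 0.05 by edgeR, 1 was higher and 0 were lower, against 12.9% and 19% of all genes. DESeq2 called 0 of 10, where it called 9.57% of all genes lower and 5.13% higher. The blocked fit called SRSF1 lower, and SRSF4 and SRSF6 higher, where it called 28.2% of all genes lower and 25.1% higher. SRSF1 had 559 and 569 RPKM in DMSO and 438 and 403 in Silvestrol. SRSF4 had 94.1 and 73.9 RPKM in DMSO and 125 and 111 in Silvestrol (0.62 ± 0.19, SE, n = 2 per group, edgeR adjusted p = 0.089), and it was called without the DMSO library of passage 3 (adjusted p = 0.031). SRSF6 had 70.1 and 59.0 RPKM in DMSO and 112 and 65.8 in Silvestrol, so its passages differed in size. SRSF3, the smallest of the SR proteins, cannot be read from this table, since its 2 DMSO libraries gave 159 and 537 RPKM with a counted length that differed between them and the Silvestrol libraries gave 166 and 234 RPKM. Its untreated RF library also stood apart from the DMSO library at 1 h, at 196 against 104 RPKM.

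mRNA levels of the group were mostly higher with Silvestrol. In the 1 pair of mRNA libraries at 2 h, which has no replicate check, 28 of 34 genes had a higher RPKM in Silvestrol and the median log2 change was 0.27, against 0.05 over all genes. Past 1.5-fold, 8 of 34 were higher and 0 lower, where 18.3% of all genes were higher and 11.6% lower. The 8 were PTBP2 (1.96), SRSF6 (1.38), SRSF5 (1.15), SRSF3 (1.08), HNRNPA2B1 (0.75), HNRNPDL (0.74), SRSF11 (0.67) and TRA2A (0.61), as log2 changes. SRSF5 mRNA went from 55.8 to 124 RPKM while its RFs were 403 and 368 RPKM in DMSO and 355 and 366 in Silvestrol. SRSF6 mRNA went from 24.1 to 62.7 RPKM. The lowest mRNA changes were those of SRSF9 (−0.45) and PTBP1 (−0.45).

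TE z-scores at 2 h were below 0 for 23 of the 34 genes. For the log2 change in TE from RF and mRNA RPKM of passage 3, as a z-score over all genes (mean −0.32, SD 0.95), the group's median was −0.50 and that of all genes 0.04. HNRNPD (−2.04), HNRNPC (−1.9) and TRA2A (−1.55) were below −1.5, which is 3 of 34 against 7.02% of all genes, and 0 of 34 were above 1.5 against 5.23%. The value nearest the upper threshold was PTBP1 at 1.38. With the RFs of passage 4 over the same mRNA libraries, 6 genes were below −1.5 against 6.84% of all genes, namely HNRNPD (−2.48), HNRNPC (−2.45), SRSF3 (−2.11), TRA2A (−1.93), HNRNPH3 (−1.79) and HNRNPH2 (−1.59), and PTBP1 was above 1.5 (1 gene against 5.07%). HNRNPC and SRSF3 carry the limit on counted length given above, and SRSF3 was at −0.73 in passage 3. Counted length of RFs also differed between treatments, to a lesser degree, for HNRNPD (0.3 and 0.37), HNRNPH2 (0.24 and 0.45) and TRA2A (0.17 and 0.17). These are log2 values for passages 3 and 4, and the z-scores from RPKM carry them. The 2 sets of z-scores share the mRNA libraries. With reads scaled by library size alone in place of RPKM 1 of the 34 genes was below −1.5, against 7.09% of all genes.

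The test of TE as an interaction of assay and treatment gave 0 calls in either direction among the 34 genes (edgeR, adjusted p under 0.05), and 0% of all genes tested were called lower and 0% higher. At an unadjusted p under 0.05, 12 of the group were lower and 3 higher, against 14.6% and 10.8% of all genes. DESeq2 called 4 genes lower, HNRNPD (−1.73 ± 0.39, adjusted p = 0.00061), TRA2A, HNRNPLL and HNRNPH3, and 1 higher, PTBP1 (1.25 ± 0.36, adjusted p = 0.012), against 4.93% and 3.46% of all genes. The interaction fit with the passage as a block called 19 lower and 5 higher, against 23.1% and 23.3% of all genes. Those called lower included 2 SR proteins whose RFs were not called by either fit, SRSF5 and SRSF11, and also SRSF3, whose counted length differed by 0.39 and 0.77 on the log2 scale between the libraries compared, and those called higher were SRSF9, SRSF4, PCBP1, HNRNPK and PTBP1. PTBP2 and SRSF6 were also among those called lower in TE (−0.90 and −0.74, edgeR adjusted p = 0.0034 and 0.011), although the blocked fit called their RFs higher. With the offset for counted length added to the block, HNRNPK was no longer called (edgeR adjusted p = 0.37). Without the DMSO RF library of passage 3 the test without the block called 6 lower and 1 higher, against 9.95% and 6.8% of all genes, and without that of passage 4 it called 4 lower and 0 higher, against 5.71% and 2.52%. Without either Silvestrol RF library it called 0 of the group and 0% of all genes. Each of these fits takes the spread of RFs from the remaining pair alone.

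After 1 h of Silvestrol, in 1 pair of libraries, 9 of the 10 genes called lower at 2 h were over 1.5-fold lower in RPKM, and 5 of the 10 were so relative to the median gene, whose log2 change was −0.18. Of all 34 genes, 11 were over 1.5-fold lower, against 21.8% of all genes, and 0 were over 1.5-fold higher, against 1.6%. Relative to the median gene, a scale added after seeing the data, 5 were lower and 1, HNRNPDL, was higher, against 14.1% and 4.94% of all genes. The 11 lower in RPKM were HNRNPD (−1.09), HNRNPF (−0.94), HNRNPAB (−0.86), TRA2A (−0.79), HNRNPLL (−0.79), HNRNPUL2 (−0.69), SRSF2 (−0.68), HNRNPH2 (−0.64), HNRNPA0 (−0.63), HNRNPUL1 (−0.60) and TRA2B (−0.60), as log2 changes. HNRNPDL was the highest at 0.42, while PTBP1 (0.10) and PTBP2 (0.08) were close to 0 at this time. SRSF2 was 590 RPKM in DMSO and 368 in Silvestrol at 1 h, but at 2 h its passages differed, with log2 changes of −0.65 and −0.09. As a measure of how far 2 control libraries differ, the DMSO library at 1 h was over 1.5-fold below the untreated library for SRSF3 only and over 1.5-fold above it for SRSF5 only (0.896% and 2.23% of all genes).

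With INK128, TE z-scores of the group ran from −1.39 to 0.70, and the count past 1.5 in size depended on how z was computed. As for Silvestrol, with mean and SD and no pseudocount, 0 of 39 genes were below −1.5 and 0 above 1.5, against 5.02% and 2.73% of all genes, with 1 library per group and therefore no test. With median and MAD 5 genes were below −1.5 and 0 above 1.5, against 11.3% and 7.71% of all genes. With a pseudocount of 0.5 FPKM 1 was below and 5 were above, against 4.04% and 3.99%. Values are FPKM (fragments scaled by transcript length and library size), in which total RNA of this group was between 0.218 and 9.73 in DMSO. Total RNA was lower with INK128 for the median gene, by a log2 of −1.17, so RNA changes are given relative to that. Relative to the median gene, 2 of 39 genes were over 1.5-fold higher in total RNA, HNRNPH2 (0.89) and the readthrough transcript HNRNPUL2-BSCL2 (0.61), and 0 were over 1.5-fold lower, against 8.09% and 4.51% of all genes. RFs were over 1.5-fold lower in 2 of 39, PTBP2 (−0.78) and HNRNPA1L2 (−0.84), and over 1.5-fold higher in 0, against 2.91% and 3.26%.

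The lowest INK128 z-scores were those of HNRNPH2 (−1.39), PCBP2 (−1.17) and HNRNPA1L2 (−1.04). HNRNPH2 had an RF level of 4.08 FPKM in DMSO and 4.50 in INK128, with total RNA of 0.238 and 0.195, so its RF level was not lower, and its total RNA change relative to the median gene was the highest of the 39. PCBP2, a poly(C) binding protein that also acts on mRNA stability and translation, had RFs of 129.7 and 93.2 FPKM and total RNA of 7.78 and 3.85. HNRNPA1L2 is an intron-less copy of another hnRNP A gene, so its reads may come from that gene and its value is uncertain. The highest z-scores were HNRNPLL (0.70), SRSF9 (0.68) and SRSF2 (0.53). SRSF9 had RFs of 134.5 FPKM in DMSO and 148 in INK128 with total RNA of 6.49 and 2.53, and SRSF2 had RFs of 76.3 and 71.1 with total RNA of 5.21 and 1.81. HNRNPLL had RFs of 12.1 FPKM in DMSO and 14.3 in INK128, in contrast to its fall with Silvestrol. HNRNPD, lowest with Silvestrol, had RFs of 164.9 and 161.8 FPKM and a z-score of 0.25 with INK128. Whether the 2 drugs differ for a gene was not tested, since INK128 has 1 library per group.

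**Figure D3:**
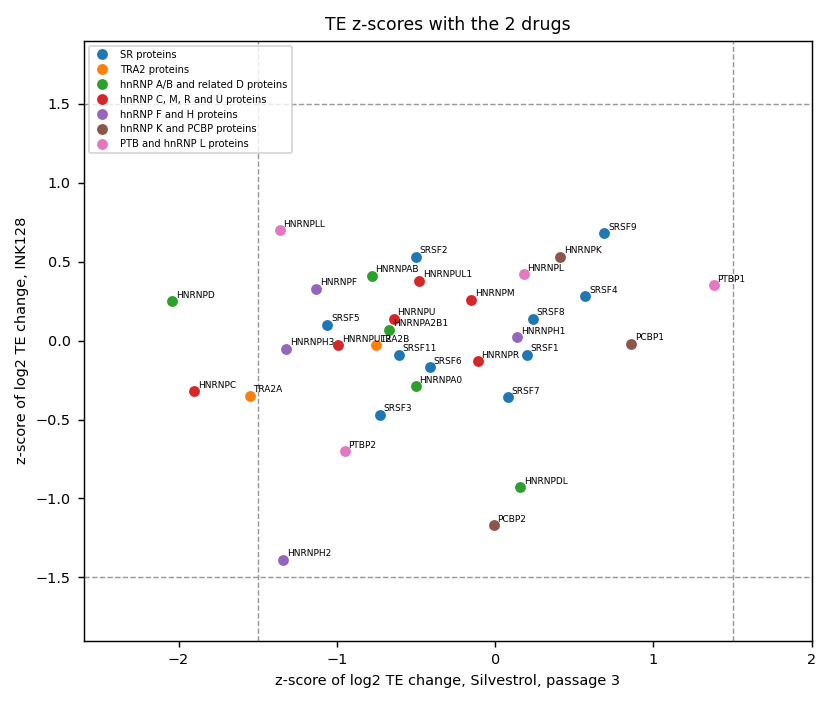
TE z-scores for the 34 genes past the Silvestrol filter that were also past the INK128 filter, with Silvestrol in passage 3 on the x axis and INK128 on the y axis. Each point is 1 gene in its family's colour, and dashed lines mark −1.5 and 1.5. HNRNPD, HNRNPC and TRA2A lie left of the vertical line at −1.5, and no gene lies beyond a horizontal line with z from mean and SD.

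Annotated 5′ UTRs of the genes with fewer RFs were longer at the median than those of the rest of the group. In GENCODE on GRCh37, the 10 genes had a median 5′ UTR of 264 nt, from 151 for HNRNPH2 to 313 for HNRNPD, against 139 nt for the 21 genes not called and 132 nt over all genes. The 21 genes ran from 20 to 350 nt, so the ranges overlapped. Over 200 nt were 6 of the 10 and 6 of the 21. The 3 genes with more RFs had 46 nt (PTBP1), 81 nt (PTBP2) and 772 nt (HNRNPDL), so the longest 5′ UTR of the group belongs to a gene whose RFs rose. GC content of the 5′ UTR was similar, with a median of 67.2% in the 10 genes and 67.6% over all genes. Predicted folding energy of the whole 5′ UTR had a median of −110.6 kcal/mol in the 10 genes and −61.7 in the 21, and per nucleotide it was −0.422 kcal/mol in the 10 and −0.398 in the 21. These are descriptions with no test, and the transcript starts used in these cells were not measured. The run GGCGGCGGC, searched on the transcript strand of the 5′ UTR, was found in 5 of 34 genes (HNRNPA0, HNRNPAB, HNRNPUL2, SRSF11 and SRSF9) and in 10.8% of all genes.

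**Figure D4:**
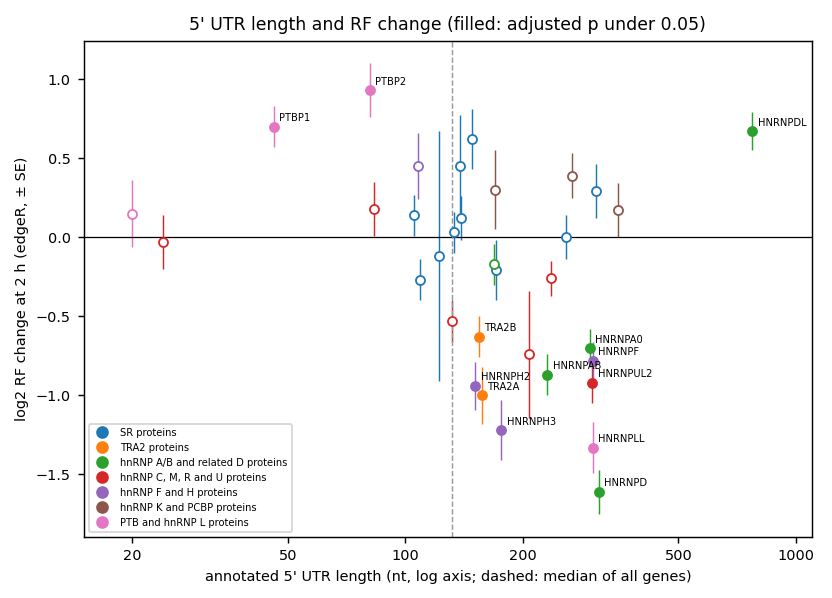
Log2 RF change at 2 h (y axis, edgeR, bars are ± SE) against annotated 5′ UTR length in nt (x axis, log scale) for the 34 genes, coloured by family. Filled points have an adjusted p under 0.05, and the dashed line is the median of all genes, 132 nt. The 10 genes with fewer RFs lie between 151 and 313 nt, the 21 not called between 20 and 350 nt, and HNRNPDL stands at 772 nt with more RFs.

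Since mTOR inhibitors act most on mRNAs that open with a C followed by a run of pyrimidines, the annotated openings of a few of these mRNAs are shown, with the opening pyrimidine run in capitals. A C followed by at least 4 pyrimidines opened 2 of the 34 transcripts, HNRNPA0 and SRSF9, and 5.4% of those of all genes past the Silvestrol filter. HNRNPA1L2, which passed the INK128 filter only, also opens this way, with a run of 8 pyrimidines. HNRNPA0 and SRSF9 are set beside PCBP2 and the HNRNPD and HNRNPDL pair, as the first 20 bases of the MANE Select transcript in GRCh37 (hg19), 5′ to 3′:
HNRNPA0: CTCTTTgtgtggtgcccaga
SRSF9: CCCTTCgcttccgctccgcg
PCBP2: CCCagaccagcagaggcagc
HNRNPD: gtcggccattttaggtggtc
HNRNPDL: aacaaagaagcgaacgcggg
The positions are chr5:137090033-137090052 (minus strand), chr12:120907532-120907551 (minus), chr12:53845886-53845905 (plus), chr4:83295125-83295144 (minus) and chr4:83351596-83351615 (minus), each within the 5′ UTR of exon 1. With INK128 the RF changes were −0.16 for HNRNPA0, 0.14 for SRSF9, −0.48 for PCBP2, −0.03 for HNRNPD and −0.43 for HNRNPDL on the log2 scale, against a median of 0.02 over all genes, so that SRSF9 was the highest and PCBP2 the lowest of these 5. HNRNPA1L2, with the uncertainty given above, was at −0.84, the lowest RF change of the 39 genes.

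Other genes of the splicing machinery gave mixed counts with Silvestrol. Among RNA-binding splicing regulators outside the SR and hnRNP classes, 6 of 31 had fewer RFs and 2 had more (edgeR, where 8.79% and 3.03% of all genes were called), and MBNL1, MBNL2 and QKI had z-scores of −2.41, −1.89 and −2.48, with log2 RF changes of −1.76 ± 0.14, −1.30 ± 0.21 and −2.29 ± 0.19 (adjusted p = 0.013, 0.026 and 0.013). RBM17 was at −1.71 and ESRP2, an epithelial splicing regulator, at 1.72, and their RF changes were not called (edgeR adjusted p = 0.066 and 0.39). Of the SR protein kinases 1 of 7 had fewer RFs, DYRK1A with a z-score of −2.48 and a log2 RF change of −1.31 ± 0.18 (edgeR adjusted p = 0.018). Of the SR-related and exon junction proteins 3 of 20 had fewer and 2 more RFs. In that list SFRS15 (SCAF4) had z-scores of −1.78 in passage 3 and −1.21 in passage 4, and RBM8A 3.01 and 0.30, and neither RF change was called (edgeR adjusted p = 0.054 and 0.73). Of the Sm and U1 proteins 1 of 10 had fewer RFs and 0 more, of the U2 and U2AF proteins 1 of 17 fewer and 1 more, and of the tri-snRNP and catalytic step proteins 0 of 26 either way by edgeR. All these edgeR counts stand against the same 8.79% and 3.03% of all genes. Of the 26, 3 were lower and 4 higher at an unadjusted p under 0.05 by edgeR, against 19% and 12.9% of all genes. DESeq2 called 2 of them higher, against 5.13% of all genes. The blocked fit called 16 lower and 8 higher of the other regulators, 2 and 1 of the kinases, 7 and 6 of the SR-related and exon junction proteins, 5 and 2 of the Sm and U1 proteins, 2 and 8 of the U2 and U2AF proteins and 6 and 11 of the tri-snRNP and catalytic step proteins, where 28.2% and 25.1% of all genes were called. Without the Silvestrol RF library of passage 3, or without that of passage 4, edgeR called 0 genes of these lists and 0% of all genes, with the DMSO pair alone giving the spread. The log2 changes in these 2 fits were −1.83 and −1.73 for MBNL1, −1.12 and −1.5 for MBNL2, −2.37 and −2.25 for QKI and −1.22 and −1.41 for DYRK1A. At an unadjusted p under 0.05, 7 of the other regulators were lower and 2 higher in the first of these fits and 10 and 5 in the second, and each of the remaining lists had between 0 and 4 genes in either direction. With INK128, YBX1 was the one gene on these lists past 1.5 in size, with a z-score of −2.10 and a log2 RF change of −1.59.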

How the data were processed

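The members and the lists of other splicing genes were chosen with earlier results of these data known. For Silvestrol, the authors used Bowtie to align reads to hg19 and to canonical transcripts of UCSC KnownGene. The deposited counts are of reads that mapped uniquely. The authors also deposited RPKM, which leaves out positions with non-unique reads. For INK128, FPKM values were deposited by the authors, whose program is not given in the sources used here, with no counts. The deposited score is the authors' standardized log2 change in TE. That score, the deposited log2 values, the TE ratio and the mean RPKM columns were made by the authors and were not used. All per-sample columns were mapped to a sample. The control mRNA column carries no treatment name in the table and was taken as the DMSO library.

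Repeated lines were dropped, and 546 symbols with several distinct lines were left out, a choice made after the table was seen, because libraries appeared to be split between the lines of some of them. No member was among them. Genes tested had RPKM above 0 in the 4 passage 3 libraries at 2 h, means of at least 1 RPKM for RFs and 0.3 RPKM for mRNA; INK128 genes had status OK, RF FPKM of at least 1 and RNA FPKM of at least 0.1. Counts were tested with edgeR 4.0.16 (TMM, glmQLFit, glmQLFTest) in R 4.3.3, and TE as an assay by treatment interaction over 6 libraries. For edgeR, the SE was computed as the absolute log2 change over the square root of the F statistic of the test. Values credited to DESeq2 carry the SE of that program. P-values were adjusted by Benjamini-Hochberg over all genes. DESeq2 1.42.0 was an alternative, and the code was tested on simulated data. Log2 changes of single pairs of libraries used no pseudocount.

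The labels give passages shared by the treatments. Across 10377 genes, the amounts by which DMSO libraries departed from their mean followed those of Silvestrol libraries of the same passage (r = 0.601), so the numbers pair the samples. Values were given library by library for the 5 lowest and 5 highest RF changes among genes with at least 50 RF reads per library, genes past a z-score of 1.5 and the 3 lowest and highest INK128 z-scores, and other members were named after their values were seen. From the lists of other splicing genes at most 5 genes per list were named, by the size of the z-score, where the RF change had 1 sign in both passages. 5′ UTRs were from GENCODE 44 lifted to GRCh37 (MANE Select), with energies from RNAfold 2.7.2. Intervals and SEs do not cover the unreplicated mRNA libraries.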

Additional observations from a re-analysis of the deposited data

How the results depend on the processing

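Leaving out 1 RF library at a time, fewer RFs were called for 0 to 11 of the genes, more RFs for 0 to 4, reduced TE for 0 to 6 and increased TE for 0 to 1, with 0 RF calls when either Silvestrol library was left out. With the passage as a replicate block, more RFs were called for 8, reduced TE for 19 and increased TE for 5 (25.1%, 23.1% and 23.3% of all genes). Together with the offset for counted length (added after seeing the data) the calls were 16 fewer RFs, 7 more RFs, 19 reduced and 4 increased TE (27.1%, 25%, 24.9% and 23.3% of all genes). DESeq2 called 4 reduced and 1 increased TE (4.93% and 3.46% of all genes), and 1 reduced TE was called with no filter (1.92% of all genes). Below a Silvestrol z-score of −1.5 there were 6 genes with the RFs of passage 4 (6.84% of all genes), 1 with reads scaled by library size alone (7.09%) and 1 with the untreated RF library as control (6.79%). Above 1.5 there was 1 with the RFs of passage 4 (5.07%). For INK128, 1 gene was below −1.5 and 5 above 1.5 with a pseudocount of 0.5 (4.04% and 3.99% of all genes), and 5 were below with median and MAD (11.3%). The median log2 change in total RNA with INK128 was −1.26, −0.95 with the pseudocount and −0.08 relative to the median gene (added after seeing the data). The sign of the RF change turned in at least 1 alternative for 7 genes, HNRNPL, HNRNPM, SRSF2, SRSF3, SRSF5, SRSF9 and SRSF11, and 0 of them were called where it turned. Among these, SRSF2 ran from −0.44 to 0.07 over the 4 fits that leave 1 library out, SRSF9 was at −0.03 with the offset for counted length, and SRSF3 at −0.12 without the block and 0.18 with it. SRSF3 moved further when 1 library was left out, to 1.36 without the DMSO library of passage 4 and 0.42 without the Silvestrol library of passage 3. With offset and block together SRSF2 and SRSF3 were called lower (−0.23 and −0.38, edgeR adjusted p = 0.037 and 0.028). The causes of these shifts were not tested, apart from the fewer libraries in the fits that leave 1 out. Relative to the median gene (added after seeing the data), 5 genes in place of 11 were over 1.5-fold lower in RFs at 1 h and 1 in place of 0 higher. HNRNPC and HNRNPA3 had few RF reads in the Silvestrol table, which limits their precision there, and the cause was not tested.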
